A study of Mus musculus with 16 samples.

Results

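Cux2, Bcl6, Trim24 and Tox encode nuclear regulators of transcription that have been tied to growth hormone signalling or to sex differences in liver, and their surrounding open chromatin was read here from 4 lists of DNase hypersensitive sites (DHS). Liver nuclei came from males and females of 2 inbred strains, C57BL/6J mice (B6) and the wild-derived CAST/EiJ mice (CAST), which were 8 weeks old. The 4 groups were defined by sex and strain, and neither a transgene nor a treatment is named for any of them. For each liver, 32 units of DNase I cut the nuclei, and the released short fragments were sequenced. Each group held 4 libraries that were merged before peaks were called, which left 1 peak list per group and no value for a single mouse. All sites in the 4 genes and within 20 kb on either side were taken, with peaks of different lists joined into 1 region where they shared at least 1 bp. This gave 41 regions of the 51482 found in all lists together: 12 at Cux2, 11 at Bcl6, 4 at Trim24 and 14 at Tox.

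Growth hormone reaches the liver in pulses in male rodents and almost without interruption in females, and its receptor signals through the kinase JAK2 to the transcription factor STAT5, which binds DNA at the palindrome TTCNNNGAA. BCL6 is a zinc finger repressor whose DNA motif overlaps that of STAT5 and which is known as a regulator of male liver. CUX2 is a cut homeodomain protein known from female liver, where it represses many genes of the male program, and it shares its DNA motif with the hepatocyte factor HNF6. TRIM24 is a coregulator of nuclear receptors and a suppressor of liver tumours in the mouse, and TOX is an HMG box protein best known from T cell development. DNase hypersensitivity marks DNA that is not wrapped around nucleosomes, as at active promoters and enhancers.

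The regions that carry the differences described below are shown as 300 bases of the mm9 reference centred on the highest summit, plus strand, 5′ to 3′. Capitals mark matches, on either strand, to letters searched for each factor. For STAT5 they were TTCNNNGAA, for HNF6 and CUX proteins either ATCGAT or the related form ATCAAT, and for HNF4A either CAAAGTCC or the related form CAAAGGTC. For FOXA proteins they were TGTTTAC or the related form TGTTTGC, for CEBP proteins TTGCGCAA or the related form TTGCACAA, for ETS proteins ACTTCCGG, for CTCF its core AGGGGGC, and for the E-box CACGTG. Matches of HNF6 and CUX can overlap each other, and STAT5 matches can share an end base with them. The reference is that of B6, and the bases that CAST carries at these places were not analysed here.

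The 3 Cux2 windows lie in introns, at chr5:122450491-122450790 (the only member region of females alone), chr5:122398414-122398713 (the site with the largest male excess) and chr5:122469481-122469780 (highest in CAST females).
Cux2 +49.5 kb: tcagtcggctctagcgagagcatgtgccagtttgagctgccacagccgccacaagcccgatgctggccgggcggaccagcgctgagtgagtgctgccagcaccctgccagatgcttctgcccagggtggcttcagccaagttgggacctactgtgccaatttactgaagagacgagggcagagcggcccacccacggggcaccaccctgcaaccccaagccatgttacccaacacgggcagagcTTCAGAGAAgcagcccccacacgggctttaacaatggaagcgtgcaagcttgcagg
Cux2 +101.5 kb: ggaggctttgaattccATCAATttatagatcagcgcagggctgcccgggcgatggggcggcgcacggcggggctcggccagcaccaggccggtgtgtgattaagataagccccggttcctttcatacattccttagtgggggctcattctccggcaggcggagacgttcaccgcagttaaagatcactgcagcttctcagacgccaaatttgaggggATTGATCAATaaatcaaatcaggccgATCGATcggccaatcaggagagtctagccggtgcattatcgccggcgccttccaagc
Cux2 +30.5 kb: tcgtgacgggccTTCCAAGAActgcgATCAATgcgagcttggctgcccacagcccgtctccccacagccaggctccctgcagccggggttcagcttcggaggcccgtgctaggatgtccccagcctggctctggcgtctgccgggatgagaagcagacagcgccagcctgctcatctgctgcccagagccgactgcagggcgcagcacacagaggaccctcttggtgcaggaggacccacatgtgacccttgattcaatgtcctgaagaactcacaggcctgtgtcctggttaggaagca

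The Bcl6 window at chr16:23996534-23996833 lies upstream of the gene in a region called in CAST alone. The Trim24 windows are the upstream CAST region at chr6:37803312-37803611 and the intronic B6 region at chr6:37876768-37877067, which holds none of the searched letters.
Bcl6 7.7 kb upstream: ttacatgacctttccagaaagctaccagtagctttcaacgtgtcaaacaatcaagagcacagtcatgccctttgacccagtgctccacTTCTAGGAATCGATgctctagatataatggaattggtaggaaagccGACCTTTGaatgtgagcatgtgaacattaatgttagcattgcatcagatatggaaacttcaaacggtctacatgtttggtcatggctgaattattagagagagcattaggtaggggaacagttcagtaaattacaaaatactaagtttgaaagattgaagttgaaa
Trim24 17.3 kb upstream: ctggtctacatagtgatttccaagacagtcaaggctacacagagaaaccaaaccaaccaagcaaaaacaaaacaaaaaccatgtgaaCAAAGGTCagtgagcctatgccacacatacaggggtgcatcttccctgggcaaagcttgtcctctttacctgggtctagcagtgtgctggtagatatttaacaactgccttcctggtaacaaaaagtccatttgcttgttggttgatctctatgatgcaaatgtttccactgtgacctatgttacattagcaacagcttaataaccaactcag
Trim24 +56.1 kb: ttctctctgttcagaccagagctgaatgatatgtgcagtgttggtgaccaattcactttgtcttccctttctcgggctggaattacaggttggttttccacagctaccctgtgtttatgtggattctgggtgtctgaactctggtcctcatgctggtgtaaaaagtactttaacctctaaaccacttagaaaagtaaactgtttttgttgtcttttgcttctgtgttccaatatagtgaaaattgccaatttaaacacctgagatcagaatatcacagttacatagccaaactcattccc

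Both Tox windows lie in introns, at chr4:6841391-6841690 (the strongest Tox site, higher in males) and chr4:6771473-6771772 (called only in CAST).
Tox +77.2 kb: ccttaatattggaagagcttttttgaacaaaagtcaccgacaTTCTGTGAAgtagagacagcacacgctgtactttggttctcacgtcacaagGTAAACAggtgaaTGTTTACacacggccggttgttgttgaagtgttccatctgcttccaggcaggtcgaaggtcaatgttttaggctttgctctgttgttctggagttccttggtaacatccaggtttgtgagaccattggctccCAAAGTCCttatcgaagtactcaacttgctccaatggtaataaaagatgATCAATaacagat
Tox +147.1 kb: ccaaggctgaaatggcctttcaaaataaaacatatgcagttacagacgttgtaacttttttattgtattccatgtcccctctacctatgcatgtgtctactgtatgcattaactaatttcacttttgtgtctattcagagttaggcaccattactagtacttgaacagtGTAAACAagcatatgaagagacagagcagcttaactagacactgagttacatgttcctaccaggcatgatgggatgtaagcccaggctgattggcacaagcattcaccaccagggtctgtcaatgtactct

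Every DHS is named here by the distance of its highest summit from the annotated 5′ end of the gene, counted in the direction of transcription. Its height is the fold enrichment, which is the number of overlapping fragments at the summit (the pileup) over the local background, each with 1 added. Over peaks of all genes, the median fold enrichment was 3.49 in B6 males, 3.28 in B6 females, 3.74 in CAST males and 4.06 in CAST females. The male lists were longer, with 38751 peaks in B6 and 39562 in CAST against 26271 and 24888 in females. The most frequent local background, in fragments, was 15.4 in B6 males, 13.9 in B6 females, 14.3 in CAST males and 7.94 in CAST females, so that the list of CAST females was the shallowest. Peaks lay within 1 kb of a start site for 5 to 7 of 8 hepatocyte markers, 0 of 5 Kupffer cell markers, 1 to 4 of 5 sinusoidal endothelial markers, 0 to 2 of 5 stellate cell markers and 1 of 4 bile duct markers in each list, and for 0 of 4 B cell and 1 of 6 T cell markers (Lck), with none at Cd3e, Cd3d, Cd3g, Cd4 or Cd8a. The summed enrichment at the endothelial start sites was 13.2 in B6 males and 5.45 to 8.13 in the other lists. Sums at the stellate cell start sites were 5.78 and 5.16 in B6 and CAST males against 2.41 and 0 in females, and those at the hepatocyte start sites 30.3 and 29.1 against 21.5 and 20.3. The part of any of these in the differences below was not tested. B6 males had 53 peaks on chromosome Y and B6 females 15, and a peak at Xist was called in B6 females alone. Neither CAST list held a peak on Y or at Xist, so these loci gave no check of sex in CAST. In whole liver, fewer cells of a type and less signal per cell cannot be told apart.

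Of the 41 regions, 15 were called in all 4 lists, against 35.6% of all regions, a share of 36.6% and close to the background. Tox, Bcl6 and Cux2 were rich in sites, with more regions than 97.9%, 95.6% and 96.6% of the 16752 protein-coding genes that had any, whose median was 3. The longest gene, Tox (305 kb), had all 14 of its regions inside introns, while the shortest, Bcl6 (23.8 kb), had 4 upstream, 6 in the gene and 1 downstream. Per 100 kb of window, the density was 17.2 regions at Bcl6, 5.18 at Cux2, 4.06 at Tox and 2.95 at Trim24. Peak widths ran from 237 to 1336 bp, with medians of 624 bp in B6 males, 560 bp in B6 females, 575 bp in CAST males and 527 bp in CAST females. In the 15 shared regions the summits of the 4 lists spanned a median of 115 bp, against 91 bp in the 18309 shared regions of the genome. No member region had a second copy in the genome over as much as 50% of its length at 90% identity or more, and the longest such match covered 23.1% of a region (Trim24 +42.9 kb).

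**Figure D1:**
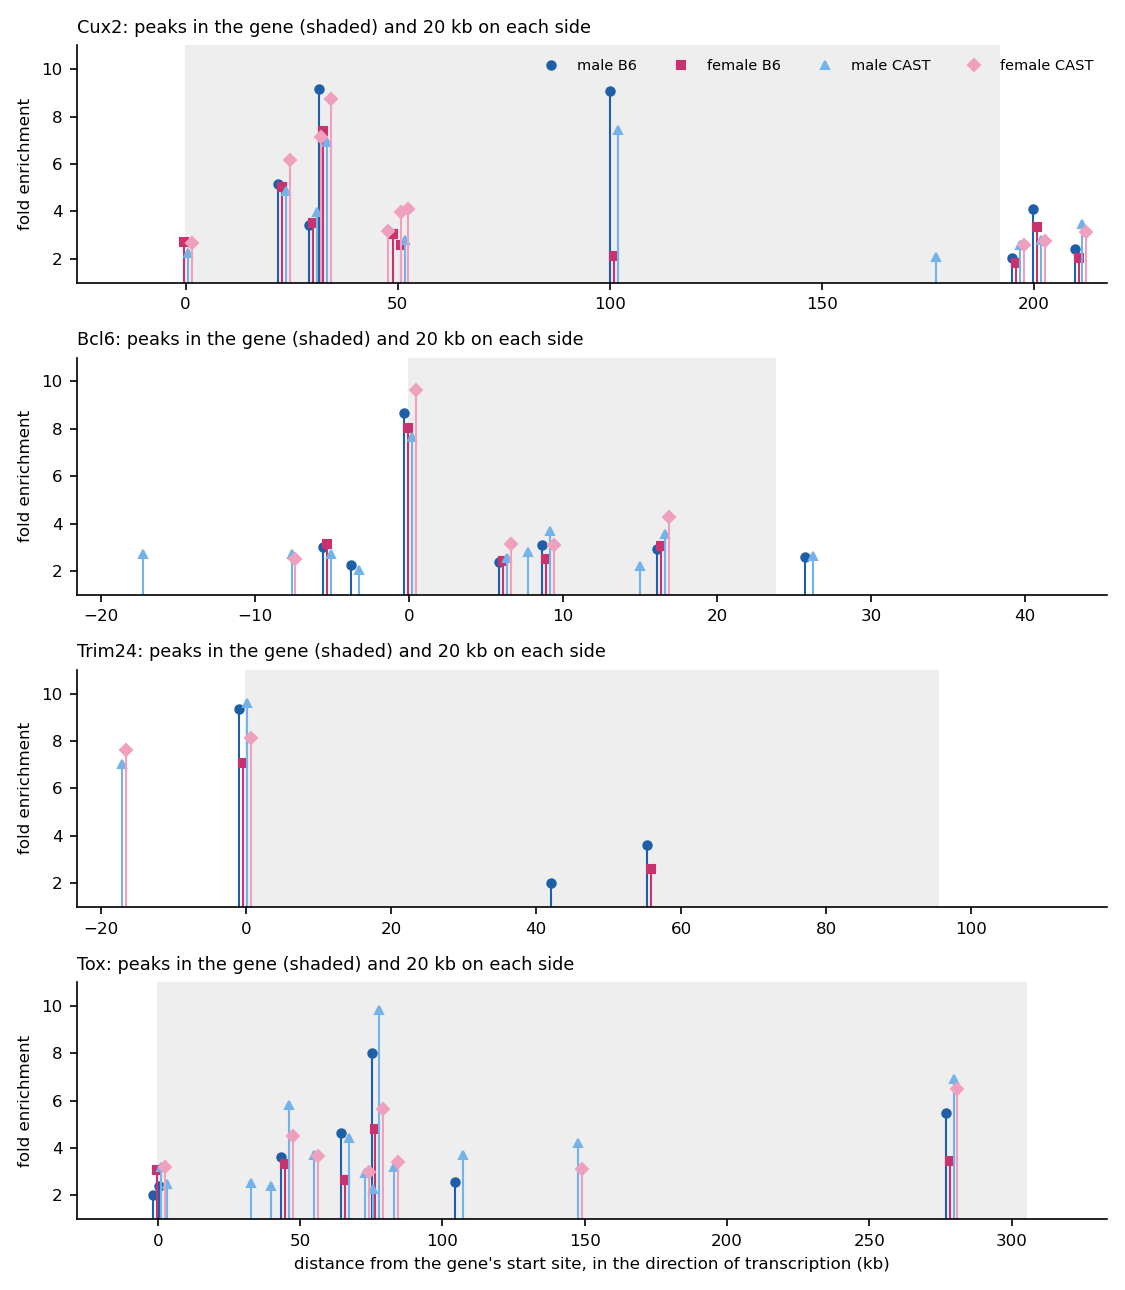
Fold enrichment (y axis, from 1) of every peak at Cux2, Bcl6, Trim24 and Tox against its distance from the start site in kb (x axis); stems of the 4 lists are set slightly apart at each region, and the gene is shaded. The tallest stems stand at the start sites of Bcl6 and Trim24, at Cux2 +32.9 kb and +101.5 kb and at Tox +77.2 kb, and Trim24 has a pair of CAST stems 17.3 kb upstream with no B6 stem beside them.

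Cux2 held both the region of females alone and the region with the largest male excess. Its start site region (chr5:122499888-122500902), at the annotated starts of 2 coding transcripts and overlapping the gene Gm15637, was called in B6 females at a fold enrichment of 2.72, in CAST males at 2.23 and in CAST females at 2.65, and not in B6 males. The region was weak wherever it was found, at the 31.2 percentile of its list in B6 females and the 8.81 percentile in both CAST lists. A peak in B6 males would have been called from an enrichment of about 1.85 there, against which B6 females, scaled to the male list, predicted 3.59 and CAST males, scaled to B6, predicted 2.11. The next coding start, 2.05 kb from this region, had none within 500 bp.

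A cluster of 3 sites lay 46 to 51 kb inside Cux2, on either side of an annotated internal start of a coding transcript at chr5:122452353. The +49.5 kb region (chr5:122450333-122450946) was called at 3.05 in B6 females and 3.98 in CAST females and in neither male list. Regions of females alone, in the 2 strains, made up 0.0622% of all regions (32), and 0.215% of genes with any region (36 of 16752) had such a region within 20 kb. That share rests on the longer male lists: with each list cut to its 24888 highest peaks, 0.953% of 35042 regions (334) were of females alone, and at Cux2 the start site and the +51.1 kb region joined +49.5 kb. The summit pileups of +49.5 kb were 64 in B6 females (95% Poisson interval 49.3 to 81.7) and 60 in CAST females (45.8 to 77.2), and the 2 summits lay 65 bp apart. A STAT5 match lies 98 bases from the highest summit. From the female values, enrichments of 4.02 in B6 males and 4.73 in CAST males were predicted, 2.38 and 2.73 times the lowest callable values of 1.69 and 1.73. The neighbouring +51.1 kb region was absent from B6 males and called at 2.59 in B6 females, 2.82 in CAST males and 4.09 in CAST females. The +46.3 kb region was called in CAST females alone, at 3.16. In each region of the cluster CAST females were highest and B6 males had no peak. With only peaks at or above the median −log10 q of all lists (15.7), the +49.5 kb region was called in CAST females alone.

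The intronic +101.5 kb region of Cux2 (chr5:122398133-122398947) ran the other way. Its fold enrichment was 9.09 in B6 males, 7.42 in CAST males and 2.12 in B6 females, and no peak was called in CAST females. The male values stood at the 93.4 and 85.3 percentiles of their lists and the B6 female value at the 4.3 percentile. Summit pileups were 232 (203 to 264) in B6 males, 167 (143 to 194) in CAST males and 35 (24.4 to 48.7) in B6 females. Their intervals did not overlap between the sexes, but these counts are not scaled for list depth or local background. Such a gap alone does not show a male excess. To compare lists of unequal quality, each ratio of fold enrichment was divided by the median ratio of all regions in both lists. The female to male ratio of Cux2 +101.5 kb in B6 was then 0.307 (95% counting interval 0.209 to 0.440), or 3.25-fold lower in females. At the Bcl6 start site the B6 pileups of 696 in males and 378 in females also had separate intervals, yet that ratio was 1.22. None of the 23644 regions in both B6 lists had a lower ratio, a count that leaves out regions with no female peak. In CAST females the male value predicted 6.24 and the B6 female value 2.52, which are 3.01 and 1.22 times the callable 2.07. The window carried 4 matches to the HNF6 and CUX letters, with 3 of them between chr5:122398631 and 122398662, and 0.117% of all regions (60) had 4 or more, a limit set after this window was seen. Tox +39.0 kb, called in CAST males alone, was the other member with 4.

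The 3 intronic regions at Cux2 +23.3, +30.5 and +32.9 kb were open in all 4 lists, with centred female to male ratios above 1 in both strains. The tallest, +32.9 kb, stood at 9.15 in B6 males, 7.41 in B6 females, 6.94 in CAST males and 8.73 in CAST females. At +30.5 kb the values were 3.41, 3.51, 3.97 and 7.13 in the same order, so that CAST females stood well above the other lists. Its centred female to male ratio in CAST was 2.14 (1.67 to 2.75), with 13 of 22764 regions higher, and in B6 it was 1.36 (1.04 to 1.77). Its CAST to B6 ratio in females was 1.71 (1.35 to 2.18), and in males 1.10 (0.839 to 1.44). The +23.3 kb region had 5.17, 5.03, 4.88 and 6.15, with a female to male ratio of 1.501 (1.08 to 2.08) in CAST, just inside the threshold of 1.5, and 1.29 (0.971 to 1.7) in B6. The ratio of +32.9 kb was 1.498 (1.23 to 1.83) in CAST, just outside it, and 1.07 (0.902 to 1.26) in B6. Before centring, the B6 ratios of +23.3 and +32.9 kb were 0.974 and 0.81, below 1.

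Further along Cux2, the +176.5 kb region, 0.291 kb from the start of an annotated coding transcript, was called in CAST males alone at 2.098, which predicted 0.788 times the callable level in CAST females and 1.05 times in B6 males. Downstream of the gene, 3 regions at and beyond the neighbour Fam109a were called in all 4 lists with enrichments of 1.81 to 4.12, and their centred sex ratios lay between 1.06 and 1.19. Against regions of like strength (within 1.2 times of the mean enrichment), the B6 ratios of +196.3 and +211.0 kb turned below 1, to 0.893 and 0.907. The region at the Fam109a start site was higher in B6, at 4.12 in males and 3.33 in females against 2.79 and 2.76 in CAST, and its CAST to B6 ratio was 0.641 (0.475 to 0.858) in males and 0.698 (0.447 to 1.07) in females. Of the 11 annotated start positions of Cux2, 3 had a region within 500 bp.

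Bcl6 had a strong promoter that was open in every list. The start site region (chr16:23988399-23989248), over the 5′ untranslated exon, had a fold enrichment of 8.67 in B6 males, 8.03 in B6 females, 7.66 in CAST males and 9.65 in CAST females, at the 86.6 to 95.7 percentiles of the lists. CAST females were highest and CAST males lowest, while the B6 lists lay between them. The centred female to male ratio was 1.22 (1.07 to 1.39) in B6, where it was 0.926 before centring, and 1.499 (1.3 to 1.73) in CAST, and the summits of the 4 lists fell within 39 bp. The 300 bases at its summit held 3 matches to the STAT5 letters, TTCTAAGAA at chr16:23988701-23988709 and again at chr16:23988716-23988724, and TTCTCGGAA at chr16:23988739-23988747. At least 3 such matches, a limit set after this window was seen, were found in 0.0466% of all regions (24), and at least 1 in 10.2%.

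Within the gene, the +6.2, +9.0 and +16.5 kb regions were called in all lists at 2.38 to 4.29. The +16.5 kb region, at the start of a retained-intron transcript, stood at 2.93 in B6 males, 3.07 in B6 females, 3.55 in CAST males and 4.29 in CAST females. Sex ratios of the +6.2 and +16.5 kb regions were 1.35 and 1.38 in B6 and 1.46 and 1.44 in CAST, all below the 1.5 threshold, and that of +9.0 kb was 1.07 in B6, where it was 0.985 against regions of like strength, and 0.995 in CAST.

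Flanking these, 2 Bcl6 regions were called in males of both strains and in no female list, a class that held 9.38% of all regions. With lists of equal length the class held 2.29% of regions (802 of 35042), and the downstream region was no longer in any list. They lay 3.4 kb upstream, at 2.26 in B6 males and 2.05 in CAST males, and 2.3 kb beyond the gene's 3′ end, at 2.60 and 2.63. The male values predicted 1.72 to 2.21 in the female lists, which is 1.05 to 1.19 times the lowest enrichment that those lists could have called. Predicted with the ratio of regions of like male enrichment, an alternative chosen after the values were seen, the margins were 1.58 in B6 and 1.57 in CAST upstream and 1.31 in both strains downstream. The region 5.2 kb upstream was called in B6 males (3.01), B6 females (3.16) and CAST males (2.70) and not in CAST females, where 1.7 was callable and the values 2.27 and 3.75 were predicted from CAST males and B6 females. Another region, 7.7 kb upstream, was called in CAST males (2.74) and CAST females (2.53) alone, a class of 3.62% of all regions. The CAST values predicted 1.62 times the callable level in B6 males and 1.28 times in B6 females. Its CAST female peak stood at the 5.72 percentile of that list. With only peaks at or above the median −log10 q of all lists, the region was called in CAST males alone. Its STAT5, HNF6 and HNF4A letters all lie between chr16:23996622 and 23996675.

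CAST males alone held 3 further Bcl6 regions, 17.4 kb upstream (2.71), at +7.6 kb (2.78) and at +14.9 kb (2.203), while 15.2% of all regions were of that class. The +7.6 kb region was the largest of these by reads, with 209 overlapping fragments over a local background of 74.5. The background was raised across Bcl6 in all lists, up to 81.0 fragments in CAST males at the start site against a genome-wide 14.3, and fold enrichment divides by that background. At +7.6 kb the value predicted from CAST males was 1.91 times the callable level in B6 males and 1.51 times in CAST females. The margins were 1.39 and 1.003 for the region 17.4 kb upstream and 1.28 and 0.962 for +14.9 kb, close to or below what the CAST female list could call.

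Trim24 had 4 sites, more than 52.9% of the genes with any. Of these, 1 was called in CAST alone in both sexes, 1 in B6 alone in both sexes and 1 in B6 males alone, classes that held 3.62%, 3.32% and 14.2% of all regions. Its start site region (chr6:37820384-37821310) was among the tallest of the members at 9.36 in B6 males, 7.08 in B6 females, 9.60 in CAST males and 8.14 in CAST females. After centring, its sex and strain ratios lay between 0.968 and 1.0097, and each interval included 1. The upstream region at 17.3 kb (chr6:37802904-37803823) was called at 7.03 in CAST males and 7.62 in CAST females, with summits 52 bp apart, and in neither B6 list. Its pileups of 112 (92.2 to 135) and 92 (74.2 to 113) put it at the 83.2 and 88.8 percentiles of the CAST lists. B6 values of 6.66 in males and 6.42 in females were predicted from CAST, 3.69 and 3.44 times what the B6 lists could call, the widest margins among the 12 regions of a single sex or strain. It kept its class under the stricter peak threshold, the only region of the 12 to do so. The window holds 1 match to the HNF4A letters and no CpG dinucleotide.

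The +56.1 kb intronic region of Trim24 was the reverse, at 3.61 in B6 males and 2.61 in B6 females and in neither CAST list, and was the only member region of that class, which held 3.32% of all regions. B6 males predicted 3.81 in CAST males, where 1.90 was callable, and B6 females predicted 3.10 in CAST females, where 2.24 was callable. The last Trim24 region, at +42.9 kb, was called in B6 males alone at 2.02, which predicted 0.761 times the callable level in B6 females and 1.12 times in CAST males. Of 7 annotated start positions of Trim24, only the main one had a region within 500 bp.

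**Figure D2:**
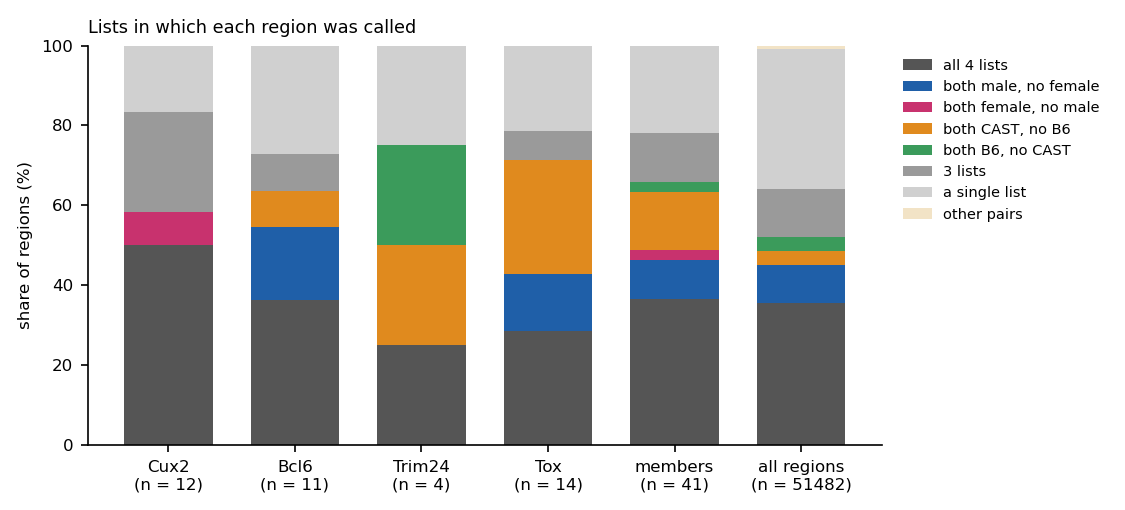
Share of regions (y axis, %) by the lists that called them, for each gene, for the 41 member regions and for all 51482 regions (x axis). Orange, regions of CAST alone, takes 4 of 14 regions at Tox and 6 of 41 over the members against 3.62% of all regions, and magenta, regions of females alone, is seen at Cux2 alone.

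Tox held 4 of the 6 member regions that were called in the CAST lists of both sexes and in neither B6 list, a class of 3.62% of all regions. Among the 347 genes with at least 14 regions, 3.46% (12) had 4 or more such regions. All 4 were intronic, at +54.1 kb (3.70 in CAST males and 3.68 in CAST females), +72.3 kb (2.96 and 2.97), +82.4 kb (3.19 and 3.39) and +147.1 kb (4.20 and 3.13). Both sexes of CAST thus gave similar heights, with centred female to male ratios of 0.888 to 1.26 whose intervals all included 1. Predicted B6 values were 1.69 to 2.097 times the callable level in males and 1.31 to 1.64 times in females. FOXA letters were found in 3 of these 4 windows, against 14.2% of all regions. No Tox region was called in B6 alone, a class of only 3.32% of all regions.

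The strongest Tox site was the +77.2 kb intronic region (chr4:6841142-6841975), which was shared by all lists and higher in males. It stood at 8.01 in B6 males and 4.79 in B6 females, and at 9.83 in CAST males and 5.66 in CAST females. Both male values lay above both female values, and the centred female to male ratio was 0.789 (0.638 to 0.972) in B6 and 0.686 (0.549 to 0.850) in CAST. These ratios did not reach the 1.5-fold threshold in either strain. Lower ratios were held by 10.7% of all regions in both B6 lists and by 4.09% of those in both CAST lists. The printed window holds a pair of FOXA matches, 1 STAT5, 1 HNF4A and 1 HNF6 match, and 1.36% of all regions had 2 or more FOXA matches, a limit set after this window was seen.

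Further male sites at Tox were weaker. The +2.5 kb region (2.39 in B6 males and 2.49 in CAST males) and the +106.5 kb region (2.57 and 3.70) were called in males alone. With lists of equal length +2.5 kb was in no list and +106.5 kb in CAST males alone. Male values of +2.5 kb predicted 1.81 and 2.1 in females, against callable levels of 1.83 and 2.07 (with the ratio of regions of like male enrichment, 2.34 and 2.70). At +106.5 kb the margins were 1.02 in B6 and 1.42 in CAST, or 1.27 and 1.49 by that ratio. The +66.3 kb region was called in B6 males (4.62), B6 females (2.66) and CAST males (4.43) and not in CAST females, where 3.72 was predicted from CAST males, 3.16 from B6 females, and 2.16 was callable.

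The start site of Tox was a low peak in all lists, at 2.02 in B6 males, 3.06 in B6 females, 3.18 in CAST males and 3.19 in CAST females. B6 males stood apart below the other 3 lists, with a summit pileup of 37 (26.1 to 51.0) at the 4.17 percentile of their list. The female to male ratio in B6 was 2.002 (1.31 to 3.09), with 7 of 23644 regions higher, and in CAST 1.19 (0.795 to 1.76). The CAST to B6 ratio was 1.49 (0.996 to 2.28) in males and 0.876 (0.577 to 1.32) in females. Shared introns at +45.4 kb (3.61, 3.31, 5.83 and 4.49 in the order above) and +278.9 kb (5.46, 3.46, 6.91 and 6.49) were higher in CAST than in B6 in each sex, with CAST to B6 ratios of 1.53 (1.12 to 2.105) and 1.199 (0.917 to 1.57) in males and 1.14 (0.774 to 1.68) and 1.58 (1.10 to 2.29) in females, intervals of which 2 included 1. CAST males alone called +32.1, +39.0 and +75.02 kb, at 2.54, 2.41 and 2.27, a class of 15.2% of all regions. The values they predicted in CAST females were 0.959, 0.913 and 1.12 times what that list could call, and those in B6 males 1.26 to 1.45 times.

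**Figure D3:**
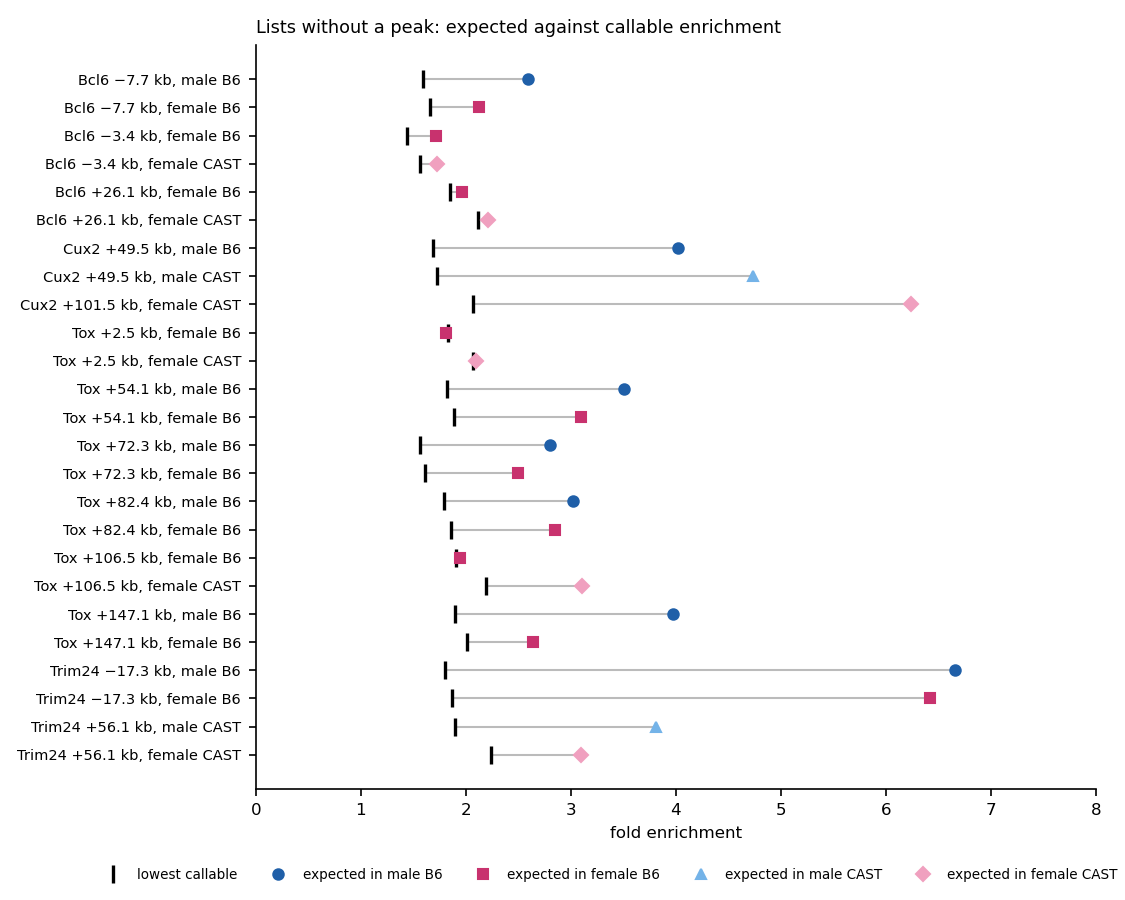
Fold enrichment (x axis) predicted in a list without a peak from the list of the other sex, for regions of a single sex, or of the other strain, for regions of a single strain (coloured points), beside the lowest value that the list could have called there (black bars), for the 12 regions of a single sex or strain and Cux2 +101.5 kb (y axis, region and list), where the value drawn is the 6.24 predicted from CAST males and not the 2.52 from B6 females, which is not drawn and would lie near the bar at 2.07. The points at Cux2 +49.5 kb and Trim24 17.3 kb upstream lie far to the right of their bars, while those at Tox +2.5 kb and at the male Bcl6 regions lie on or next to them.

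Few centred ratios of member regions reached 1.5-fold, and each count is given beside the share of all regions. Before centring, the median ratio of all shared regions was 0.758 for females to males in B6 and 0.84 in CAST, and 1.06 and 1.19 for CAST to B6 in males and females, so that every centred ratio is relative to these. In B6, 19 member regions were in both lists with a median female to male ratio of 1.12, or 0.846 before centring. Of these 19, 1 was at least 1.5 times higher in females (Tox start site) and 1 at least 1.5 times lower (Cux2 +101.5 kb), against 2.6% and 2.62% of all 23644 regions. In CAST the median of 23 was 1.19, or 1.001 before centring, with 3 higher (Cux2 +23.3, +30.5 and +51.1 kb) and 0 lower, against 2.56% and 3.31% of 22764 regions. Cux2 gave all 3 calls in CAST, and all 8 of its ratios there were above 1, with a median of 1.46. Bcl6 medians were 1.35 in B6 and 1.44 in CAST, Trim24 medians 0.977 and 1.15, and Tox medians 0.837 and 1.15. No region was called in the same direction in both strains. Cux2 +101.5 kb had no ratio in CAST, since no peak was called there in CAST females.

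Weak sites had higher sex ratios throughout the genome. The uncentred female to male ratio was 0.962 in B6 and 1.06 in CAST for regions under a mean enrichment of 2.5, and 0.722 and 0.808 for those from 4 to 7. With each ratio set instead against regions within 1.2 times of its own mean enrichment, an alternative chosen after the values were seen, the Tox start site and Cux2 +101.5 kb were again called in B6 (1.74 and 0.320). In CAST Cux2 +32.9 kb (1.55) and the Bcl6 start site (1.53) joined the 3 Cux2 calls (1.56, 2.22 and 1.67).

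**Figure D4:**
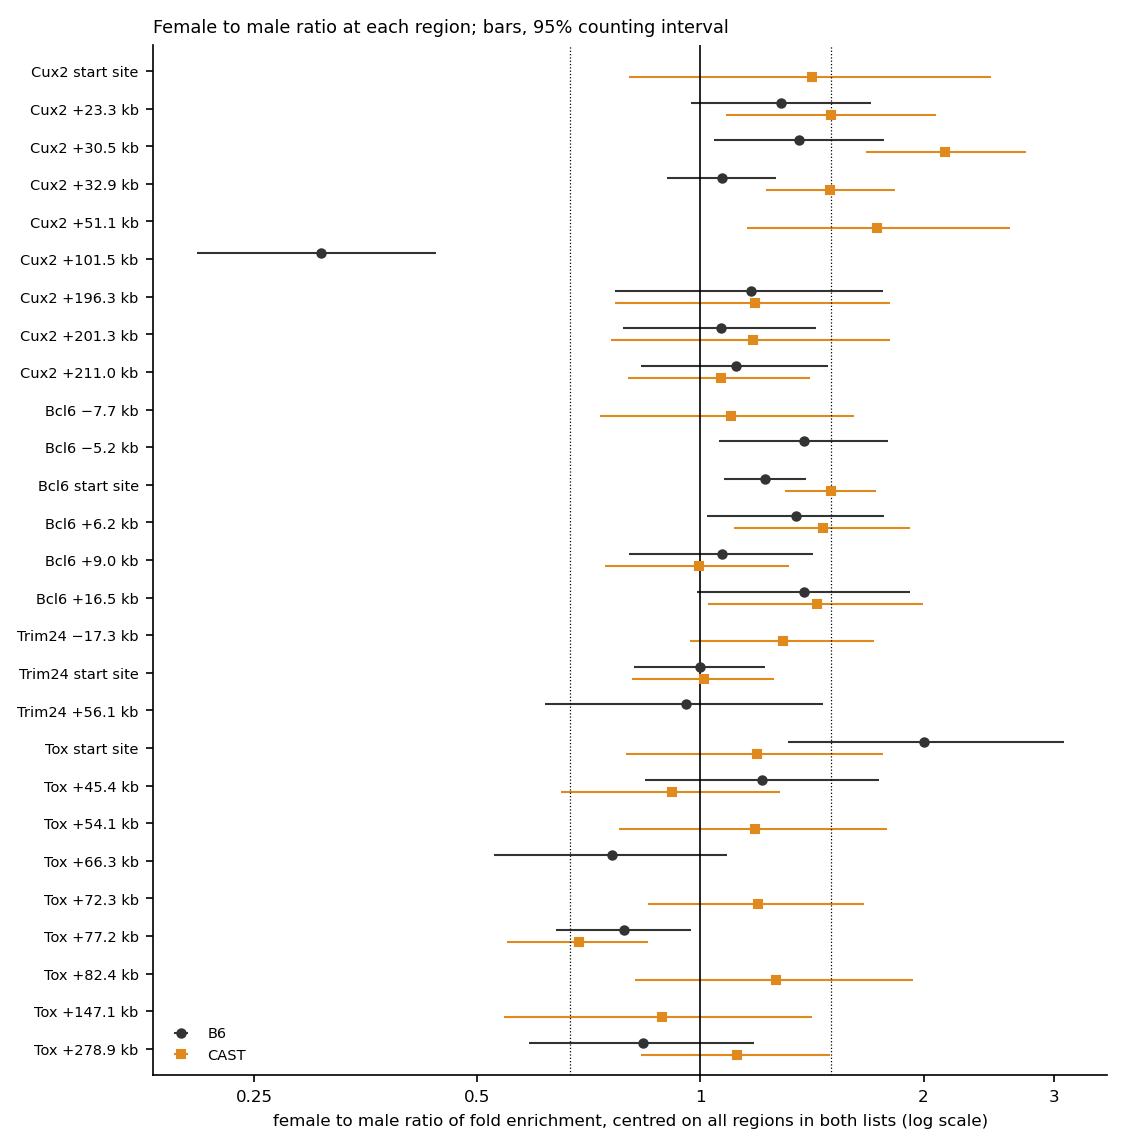
Centred female to male ratio of fold enrichment (x axis, log scale) for each member region in both lists of B6 (black circles) or CAST (orange squares), with 95% counting intervals; the solid line marks 1 and dotted lines 1.5-fold either way. Cux2 +101.5 kb stands alone at 0.307 in B6, Tox +77.2 kb lies below 1 in both strains, and the Cux2 sites from +23.3 to +51.1 kb lie above 1.

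Between strains the median ratios lay closer to 1. In males the median CAST to B6 ratio over 22 member regions was 1.002, with 1 higher (Tox +45.4 kb) and 1 lower (Cux2 +201.3 kb, at the Fam109a start site), against 6.68% and 4.49% of 29099 regions. Against regions of like strength the Tox start site (1.52) was also called higher in males. In females the median of 18 was 1.07, with 2 higher (Cux2 +30.5 kb and Tox +278.9 kb) and 0 lower, against 4.97% and 3.42% of 18601 regions. No region was called in both sexes. The sex and strain ratios use the same 4 lists and so are not independent of each other.

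**Figure D5:**
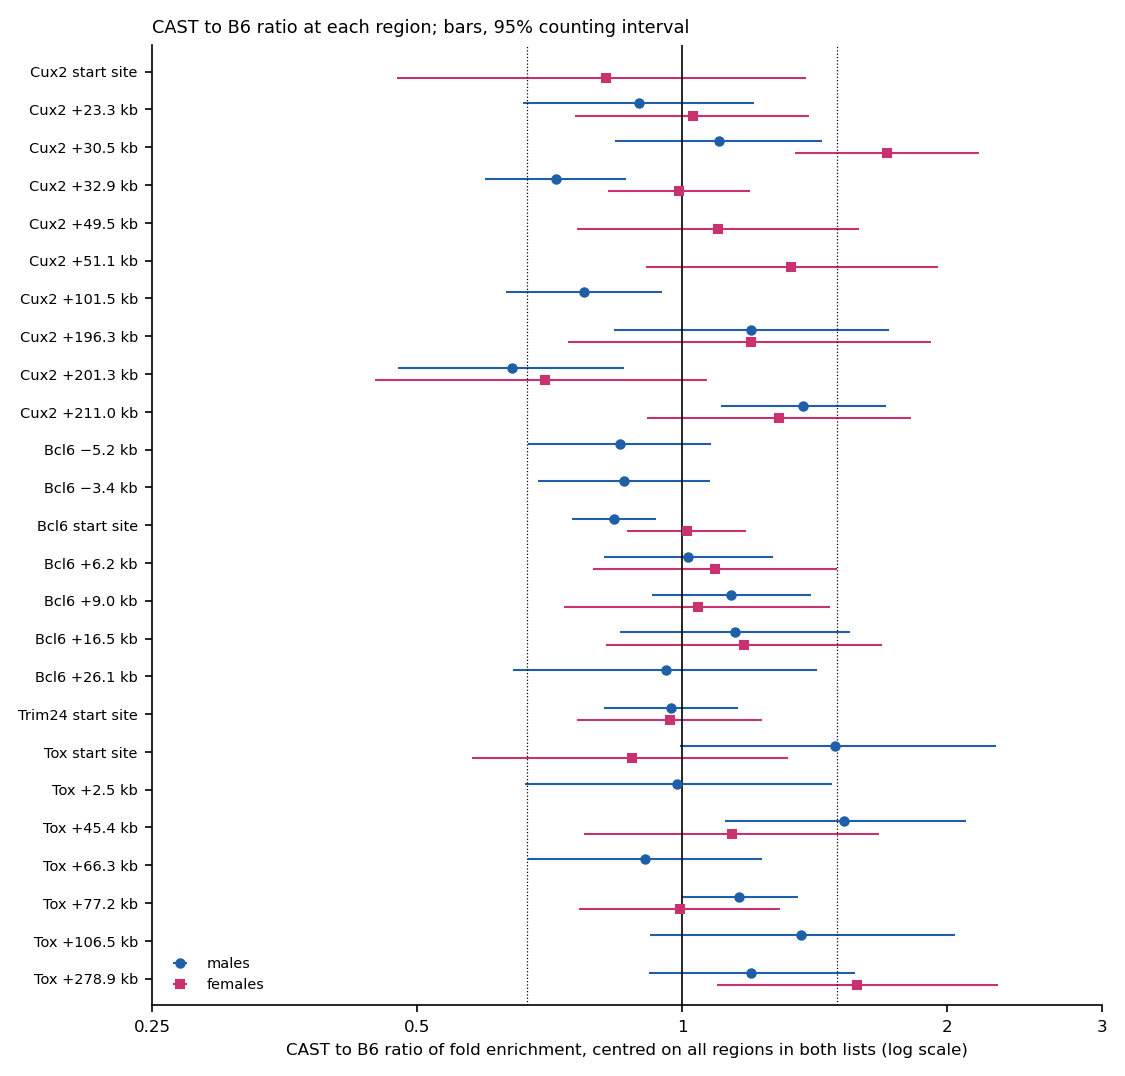
Centred CAST to B6 ratio of fold enrichment (x axis, log scale) for each member region in both male lists (blue circles) or both female lists (magenta squares), with 95% counting intervals; the solid line marks 1 and dotted lines 1.5-fold either way. Most intervals cross 1, while Cux2 +30.5 kb in females (1.71) lies to the right and Cux2 +201.3 kb in males (0.641) to the left.

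The windows at the annotated 5′ ends of the 4 genes had the highest GC content of each gene's regions. It was 78.3% at Cux2, 69.7% at Bcl6, 70.3% at Trim24 and 69.3% at Tox, against 52.3% to 65.7% in the other Cux2 windows, 39.0% to 59.7% at Bcl6, 40.3% to 42.7% at Trim24 and 36.3% to 47.3% at Tox, and a median of 49.0% over all regions. Searched letters of HNF6 and CUX were in 9 of 41 member windows (14.5% of all regions), STAT5 in 9 (10.2%), FOXA in 6 (14.2%), CTCF in 6 (6.5%), HNF4A in 3 (6.22%), the E-box in 1 (7.1%), and CEBP and ETS in 0 (2.38% and 1.97%). FOXA letters were in 5 of the 14 Tox windows and in 1 of the 27 others. RefSeq promoters (300 bases around a start, build GRCm38.p6) were given for Cux2, Bcl6 and Trim24, with 2 each. Both Bcl6 promoters held STAT5 letters, as did 8.3% of all 32851 promoters, and 1 Cux2 promoter held HNF6 and CUX letters, as did 8.4%. CTCF letters were in 1 promoter each of Cux2, Bcl6 and Trim24 (10.6% of all promoters), and E-box letters in 1 of Bcl6 (7.15%).

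Other genes of the pathway had open start sites. Of 12 genes of growth hormone receptor signalling, 11 had a start site region in all 4 lists, as did 41.6% of all 22380 protein-coding genes. Igf1, the main growth factor made by liver under growth hormone, lacked a call in CAST females (2.69, 2.53 and 2.56 in the other lists). That list was the shallowest, and its lowest callable enrichment at Igf1 was not worked out. The growth hormone receptor gene Ghr stood at 5.01 in B6 males, 3.47 in B6 females, 6.08 in CAST males and 4.64 in CAST females at its start site, and Stat5b at 5.49, 4.60, 6.12 and 5.27. Their 116 regions had 8 of males alone, at 4 of the genes, 0 of females alone, 0 of B6 alone and 2 of CAST alone, which are 6.9%, 0%, 0% and 1.72% beside 9.38%, 0.0622%, 3.32% and 3.62% of all regions. Of 11 other regulators tied to liver sex differences, some of which the study itself named from these animals and which are no independent list, all 11 had a start site region in all lists. Their 83 regions had 5, 0, 0 and 4 in the same classes. The 7 paralogs Cux1, Bcl6b, Trim28, Trim33, Tox2, Tox3 and Tox4 had 37 regions with 5, 1, 0 and 0, the female region lying at Trim28, and Tox3 had no region at all.

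The protein-coding genes whose window was most like each member's over the 4 lists, by the distance between centred log2 sums of fold enrichment, were Matn4, Vldlr and D15Ertd621e for Cux2 (distances 0.0542 to 0.0818). For Bcl6 they were Srpk1, Mbl1 and Fam123a (0.0211 to 0.039), for Trim24 Utp20, Cisd1 and Ctrl (0.0139 to 0.024), and for Tox Gyltl1b, Sorcs2 and Dst (0.0663 to 0.111). The summed enrichment at Cux2 was 35.4 in B6 males, 33.6 in B6 females, 39.2 in CAST males and 44.3 in CAST females, and Cux2 was the only member highest in a female list. Tox ran from 17.3 in B6 females to 57.6 in CAST males, Bcl6 from 19.2 in B6 females to 35.3 in CAST males, and Trim24 from 9.69 in B6 females to 16.6 in CAST males.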

How the data were processed

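DNase-seq peak lists of liver nuclei from 4 groups (male and female, B6 and CAST) were used, each called by the authors on 4 pooled libraries, 16 in all. Per the study's methods and the labels, the authors mapped unique reads with Bowtie2 to mm9 (B6) or to mm9 with CAST variants written in, converted CAST coordinates back to mm9, called peaks with MACS2, and removed blacklisted regions and peaks of duplicated reads. Fold enrichment, as deposited, divides summit pileup by local background (a ratio, with a pseudocount of 1), and the deposited −log10 p-value and q-value belong to the same summit. Column names are not in the files, and this reading was tested: solving fold enrichment and p for the pileup under a Poisson tail gave whole numbers within 0.02 for 99.86% to 99.96% of peaks by list. The lists hold no per-library value, so no test was run, and intervals (Clopper-Pearson for ratios, exact Poisson for pileups, 95%) cover counting error only. Lists without replicate error cannot show whether a pool is led by 1 of its libraries.

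Peaks were joined at 1 bp overlap, and each region took the highest peak of a list. Ratios were centred on the median of all regions in both lists and called at 1.5-fold. Where a list had no peak, its local background was taken from the other lists, scaled by the shared background, and the lowest pileup reaching the weakest p of that list gave the lowest callable enrichment. Genes are those of GENCODE vM1 on the mm9 genome. A prediction for a list is the value of the other sex or strain times the median ratio. Motifs were exact letters. Members, gene lists and named regions were chosen with earlier results of these data known. Named were regions at start sites (500 bp), the strongest of each gene, those of a single sex or strain, and up to 3 of a single list per gene, and other regions, with Cux2 +23.3, +30.5, +51.1 and +101.5 kb and Tox +66.3 kb among them, were named after their values were seen. Python 3.11.15 with SciPy 1.17.1, pandas 2.3.3 and pysam 0.24.0 and BLAST 2.17.0 were used, and scripts were tested on simulated data.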

Additional observations from a re-analysis of the deposited data

How the results depend on the processing

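No paired analysis was possible because each group is a single pooled list. Of 74 alternatives over 10 counts and median ratios, 64 kept the count within 1.5 times, the ratio within the counting interval of the region at the median or, for rank differences, the direction. Keeping only peaks at or above the median −log10 q of all lists (15.7) left 26 regions at the 4 genes in place of 41, 6 in all 4 lists in place of 15, 0 in both female lists only and 0 in both B6 lists only in place of 1 each, and 2 in both CAST lists only in place of 6; of the 12 regions of a single sex or strain only Trim24 17.3 kb upstream kept its class. Cutting each list to its 24888 highest peaks gave 2 regions in both male lists only in place of 4 (Bcl6 3.4 kb upstream, the only 1 of the 4 kept, and Cux2 +101.5 kb), and 3 in both female lists only in place of 1, while in the genome the male class fell from 4830 to 802 and the female class grew from 32 to 334. Gene bodies without flanks gave 2 regions in both male lists only. With percentile ranks in place of enrichment, the median female minus male difference was -1.37 points in B6 and -5.07 in CAST, against -8.61 and -10.9 over all shared regions, and CAST minus B6 was 1.51 in males and 3.87 in females. The cause of these shifts was not tested. Scaled to the depth of female CAST, the peaks of Cux2 +49.5 kb and of all other regions of a single sex or strain were kept. This scaling can remove peaks but not add any, so it cannot bear on a list that had no peak there. Without centring, the median female to male ratio was 0.846 in B6 and 1.001 in CAST, below 1 in B6. Single lists per group and the shallow female CAST pool limit what can be read from weak sites.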
